A study of Mus musculus with 16 samples.

Results

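Expression of 32 macrophage and leukocyte genes was followed in the epithelium and the mesenchyme of the embryonic parotid and submandibular salivary glands. The genes were taken by symbol from a list of markers of macrophages and of leukocytes in general, and all 32 were found among the 48709 gene features of the deposited counts. Of these, 31 had enough reads to enter the test, together with the other genes making up the 18191 tested. Cd163 was the member left out for low counts.

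The tissue came from wild-type mouse embryos of the ICR strain at embryonic day 13, and no group carried a transgene, a deletion or a treatment. Each gland was divided into its epithelium and its mesenchyme, which made 4 groups of 4 libraries, described in the labels as independent biological replicates. The sex of the embryos and the number of glands in a library are not stated in the labels. The sample titles place the harvest at embryonic day 13, while the series' design text also mentions a period of culture before dissection, so the state of the tissue at harvest is uncertain.

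Macrophages of the embryo come from the yolk sac and fetal liver and settle in nearly every organ before birth. They depend on the receptor CSF1R and its ligands CSF1 and IL34, and on the transcription factor PU.1, encoded by Spi1. In developing epithelial organs they sit mostly in the mesenchyme, where they clear dying cells with the help of complement C1q, scavenger receptors and lysosomal proteases. Several of the genes measured here are shared with other blood cells. Ptprc, which encodes CD45, marks all leukocytes, Pf4 is also made by megakaryocytes, and Stab1 and Mrc1 are also made by some endothelial cells.

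Members that share a lineage can share words in their promoters, so the sequence before the RefSeq start site was read for the 25 members found in RefSeq's promoter table for GRCm38.p6. The word GAGGAA, the core of the site that PU.1 binds, was searched on both strands in the 250 bases before each start. It was present for 15 of the 25 member genes (60%), against 25.9% of 27025 genes in the same table. It was 1 of 9 words searched, some of which overlap it. The longer GAGGAAGT was found in 8.0% of member genes and 2.79% of all genes, and AGGAAGT in 28% and 8.8%. The TATA box word TATAAA, a general promoter element, was at 16% and 14.3%. CACGTG, the E-box word, was in 0.0% of member genes and 6.86% of all. These are counts of letters and no binding was measured.

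The word was as frequent among members that differed between the glands in epithelium, described further on, as among the rest: it was present for 9 of the 15 matched members that were higher in parotid epithelium and for 6 of the other 10, 60% of each. The windows of Ctss, C1qb and C1qc, 3 members with the word, and of Irf8, without it, are printed to show how the windows and matches look; they were chosen after their values were seen. Each runs 5′ to 3′ on the gene's strand and ends at the base before the start site, and the capitals mark GAGGAA or, read on the other strand, TTCCTC. Ctss lies at chr3:95526536-95526785 on the plus strand, with the word beginning 164 bases upstream. C1qb lies at chr4:136886201-136886450 on the minus strand, with the word beginning 30 bases upstream. C1qc lies at chr4:136892915-136893164 on the minus strand, with TTCCTC beginning 193 bases upstream. The window of the first of the Irf8 start sites in the table lies at chr8:120736108-120736357 on the plus strand.
Ctss: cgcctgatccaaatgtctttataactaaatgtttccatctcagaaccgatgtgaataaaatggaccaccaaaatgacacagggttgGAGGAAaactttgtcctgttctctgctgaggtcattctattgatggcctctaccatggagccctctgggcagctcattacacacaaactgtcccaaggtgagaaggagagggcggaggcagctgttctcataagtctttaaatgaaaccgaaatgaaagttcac
C1qb: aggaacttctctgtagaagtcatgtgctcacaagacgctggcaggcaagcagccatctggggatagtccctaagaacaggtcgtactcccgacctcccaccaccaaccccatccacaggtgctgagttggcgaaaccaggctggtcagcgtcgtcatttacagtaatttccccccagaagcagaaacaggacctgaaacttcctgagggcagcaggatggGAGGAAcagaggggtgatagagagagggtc
C1qc: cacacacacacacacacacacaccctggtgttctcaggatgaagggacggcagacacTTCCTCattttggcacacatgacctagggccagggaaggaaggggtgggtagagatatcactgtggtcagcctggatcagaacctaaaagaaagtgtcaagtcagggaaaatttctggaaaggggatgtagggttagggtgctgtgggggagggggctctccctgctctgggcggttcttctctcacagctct
Irf8: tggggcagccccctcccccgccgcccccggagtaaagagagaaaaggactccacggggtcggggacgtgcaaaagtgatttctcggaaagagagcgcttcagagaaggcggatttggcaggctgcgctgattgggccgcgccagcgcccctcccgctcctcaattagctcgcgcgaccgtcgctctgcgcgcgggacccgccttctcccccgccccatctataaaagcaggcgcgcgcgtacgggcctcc

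Levels are given as counts per 1000000 counts of a library (CPM), scaled between libraries by trimmed mean of M-values (TMM). Libraries held 16912258 to 27646844 counts, so that 1 CPM stood for 18.3 to 27.8 reads. The layers separated cleanly by their markers. The summed level of 12 epithelial markers averaged 3240 CPM in parotid epithelium and 26.7 CPM in parotid mesenchyme, and 3230 and 49.6 CPM in the submandibular layers. All 12 were called higher in epithelium in both glands. The epithelial libraries still held reads of mesenchymal and erythroid genes. Mesenchymal markers summed to 178 to 549 CPM in the parotid epithelial libraries and 73 to 390 CPM in the submandibular ones. Erythroid genes reached 498 CPM in parotid epithelium replicate 4 and 738 CPM in submandibular epithelium replicate 1, against 7.89 to 152 CPM in the other epithelial libraries.

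The genes were found in all 4 groups, and mostly in mesenchyme. Summed over the 32 genes, the level was 340 ± 56.2 CPM (SD, n = 4) in parotid mesenchyme, with libraries from 257 to 377 CPM. In submandibular mesenchyme it was 227 ± 44.9 CPM (SD, n = 4), from 190 to 292 CPM. Parotid epithelium had 74.6 ± 11.9 CPM (SD, n = 4), from 59.7 to 88.7 CPM, and submandibular epithelium 39.7 ± 10.8 CPM (SD, n = 4), from 25 to 50.9 CPM. The epithelial sums of the 2 glands did not overlap, and no epithelial sum reached the lowest mesenchymal one. In tissue that was not separated into cells, fewer macrophages and less RNA per macrophage cannot be told apart.

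**Figure D1:**
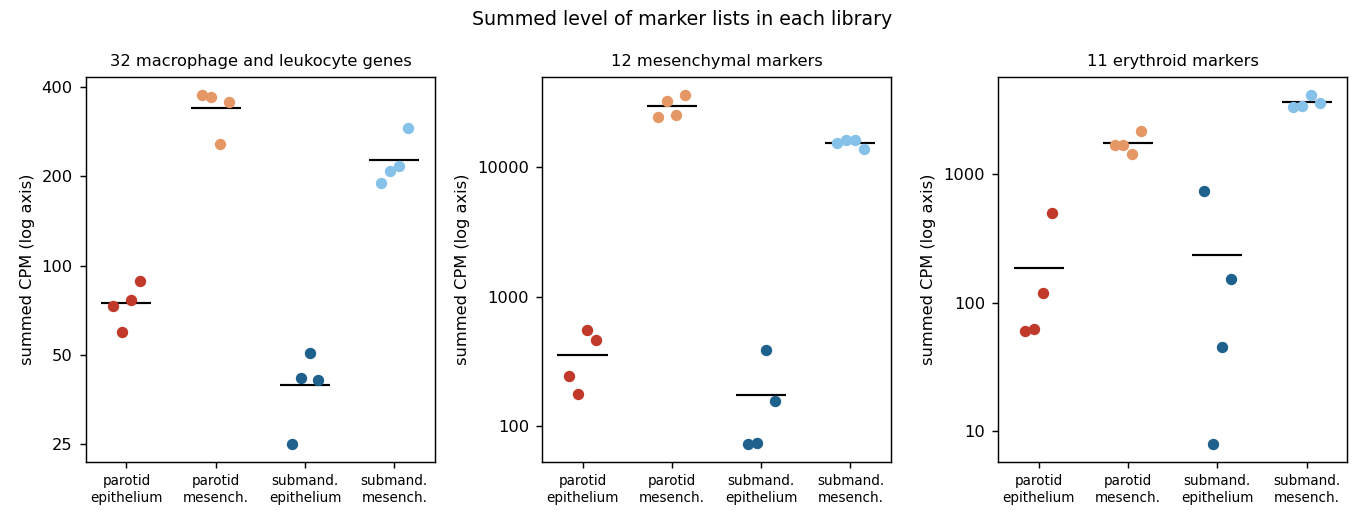
Summed CPM in each library (points, with the group mean as a line, on log axes) for the 32 macrophage and leukocyte genes, 12 mesenchymal markers and 11 erythroid markers. The members' sums run from 25 CPM in a submandibular epithelial library to 377 CPM in a parotid mesenchymal one, and the erythroid sums of the epithelial libraries spread far more widely than the members' sums.

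The defining markers Ptprc, Csf1r, Adgre1 and Cx3cr1 were lower in epithelium than in mesenchyme in both glands. Csf1r, the receptor on which macrophages depend, read 25.1, 29.7, 13.6 and 19.5 CPM in the parotid mesenchymal libraries and 10.3, 11.6, 10.6 and 15.6 CPM in the submandibular ones. In epithelium it read 4.7, 3.61, 4.29 and 4.77 CPM in the parotid and 0.108, 1.37, 1.64 and 1.61 CPM in submandibular libraries. All 4 parotid epithelial libraries lay above all submandibular ones, and all mesenchymal libraries above both. Exons of Csf1r share 15.1% of their bases with Hmgxb3 on the other strand, and the library kits do not mark strand, so some of its reads may belong to that gene. Ptprc read 4.77, 6.3, 2.68 and 6.16 CPM in the parotid and 4.03, 3.64, 3.3 and 5.71 CPM in submandibular mesenchyme. Its epithelial libraries were at 0.508, 0.422, 0.895 and 1.35 CPM in the parotid and 0.0359, 0.242, 0.371 and 0.44 CPM in submandibular glands. The mesenchymal groups of Ptprc overlapped throughout their range, and the epithelial groups overlapped by a narrow margin.

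Adgre1, which encodes the macrophage surface protein F4/80, read 9.76, 9.74, 4.58 and 7.65 CPM in parotid mesenchyme and 4.28, 5.29, 6.19 and 5.38 CPM in submandibular mesenchyme. In epithelium it read 2.37, 0.984, 0.989 and 2.26 CPM in the parotid and 0.0359, 0.805, 2.12 and 0.147 CPM in submandibular libraries. The gland groups overlapped in both layers. Cx3cr1, the fractalkine receptor of microglia and other tissue macrophages, read 20.2, 14.5, 8.01 and 14.6 CPM in the parotid and 6.88, 5.24, 7.06 and 13.5 CPM in submandibular mesenchyme. In epithelium Cx3cr1 read 3.35, 3.19, 4.0 and 3.23 CPM in the parotid and 0.108, 0.846, 1.01 and 0.879 CPM in submandibular libraries, with no overlap.

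Of the 2 transcription factors, Spi1 followed the markers and Irf8 did not. Spi1 read 4.45, 6.4, 4.02 and 5.22 CPM in parotid mesenchyme and 2.5, 1.75, 2.78 and 5.0 CPM in submandibular mesenchyme. Its epithelial values were 0.678, 0.562, 0.753 and 0.481 CPM in the parotid and 0.0718, 0.483, 0.318 and 0.11 CPM in submandibular glands. Irf8, which works with PU.1 in myeloid cells, read 7.71, 9.33, 7.16 and 8.18 CPM in the parotid epithelium and 5.31, 8.5, 7.68 and 12.1 CPM in the submandibular epithelium. In mesenchyme Irf8 read 5.09, 7.66, 3.59 and 3.96 CPM in the parotid and 4.28, 4.74, 6.5 and 6.96 CPM in submandibular libraries. It was the only member with a higher mean in epithelium than in mesenchyme in both glands.

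The C1q chains are encoded side by side on chromosome 4, from C1qb at 136880129 to the end of C1qa at 136898803 (GRCm38), and had like profiles over the groups. C1qa read 10.1, 8.65, 4.81 and 6.95 CPM in parotid mesenchyme and 3.88, 4.94, 5.98 and 6.42 CPM in submandibular mesenchyme. Its epithelial libraries read 2.58, 1.78, 1.41 and 2.02 CPM in the parotid and 0.0, 0.644, 0.477 and 0.147 CPM in submandibular glands. The epithelial groups did not overlap, while the mesenchymal groups did. C1qb read 15, 12.4, 10 and 13.5 CPM in the parotid and 7.29, 6.28, 8.3 and 7.02 CPM in submandibular mesenchyme, without overlap. In epithelium C1qb read 2.54, 2.44, 3.77 and 2.74 CPM in the parotid and 0.0718, 0.765, 1.32 and 0.11 CPM in submandibular libraries, again without overlap. C1qc, whose parotid epithelial libraries also lay above all the submandibular ones, read 5.13, 2.72, 3.72 and 4.67 CPM in the parotid and 0.0, 0.926, 1.06 and 0.293 CPM in submandibular epithelium. Its mesenchymal libraries read 16.9, 18.7, 10.6 and 15.4 CPM in the parotid and 6.07, 8.33, 7.84 and 11 CPM in submandibular glands, where the ranges overlapped at one end.

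Tyrobp and Fcer1g encode the small adaptors that carry the signals of receptors such as TREM2 and the Fc receptors. Tyrobp read 8.79, 9.03, 5.05 and 8.25 CPM in the parotid and 4.95, 5.14, 6.08 and 6.85 CPM in submandibular mesenchyme. In epithelium Tyrobp read 2.88, 1.69, 2.97 and 3.23 CPM in the parotid and 0.0, 0.322, 1.22 and 0.33 CPM in submandibular libraries. Only the epithelial groups stood apart. Fcer1g read 12.5, 11.1, 5.76 and 9.7 CPM in the parotid and 6.07, 6.13, 5.36 and 6.25 CPM in submandibular mesenchyme. Its epithelial values, which did not overlap, were 2.5, 1.55, 1.98 and 2.84 CPM in the parotid and 0.108, 0.765, 0.636 and 0.769 CPM in submandibular glands.

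Per kilobase of exon, the scale on which genes can be compared with each other, the order of the members differed by group. Pf4, a platelet chemokine, was the highest in both mesenchymal groups at 20.4 and 17.1 CPM per kb. It was followed by Lyz2, the lysozyme of myeloid cells, at 13.5 CPM per kb in parotid mesenchyme, and by Tyrobp at 8.62 CPM per kb in submandibular mesenchyme. In parotid epithelium Tyrobp (4.03 CPM per kb), the lysosomal protease gene Ctss (2.95) and C1qb (2.64) stood at the top. In submandibular epithelium the top places went to Cd68 (1.51 CPM per kb), Lcp1 (1.49) and Irf8 (1.19), and Tyrobp stood at 0.702 and Ctss at 0.29 CPM per kb. In submandibular mesenchyme Pf4, at 17.1 ± 5.62 CPM per kb, did not overlap within 1 SD with Tyrobp, at 8.62 ± 1.33 (SD, n = 4). In parotid epithelium the ranges of 1 SD overlapped between Tyrobp, at 4.03 ± 1.03, and Ctss, at 2.95 ± 0.825 CPM per kb (SD, n = 4).

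Means fell in the same order, parotid mesenchyme, submandibular mesenchyme, parotid epithelium and submandibular epithelium, for 26 of the 32 genes. A mean of at least 1 CPM was reached by 30 members in parotid mesenchyme, 28 in submandibular mesenchyme, 21 in parotid epithelium and 6 in submandibular epithelium. Cd163, a scavenger receptor of mature resident macrophages, had 2 reads in all of parotid epithelium, 1 in submandibular epithelium and 0 in submandibular mesenchyme, where 3 reads would correspond to 0.0387 CPM. In parotid mesenchyme Cd163 read 0.0, 0.109, 0.671 and 0.14 CPM.

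**Figure D2:**
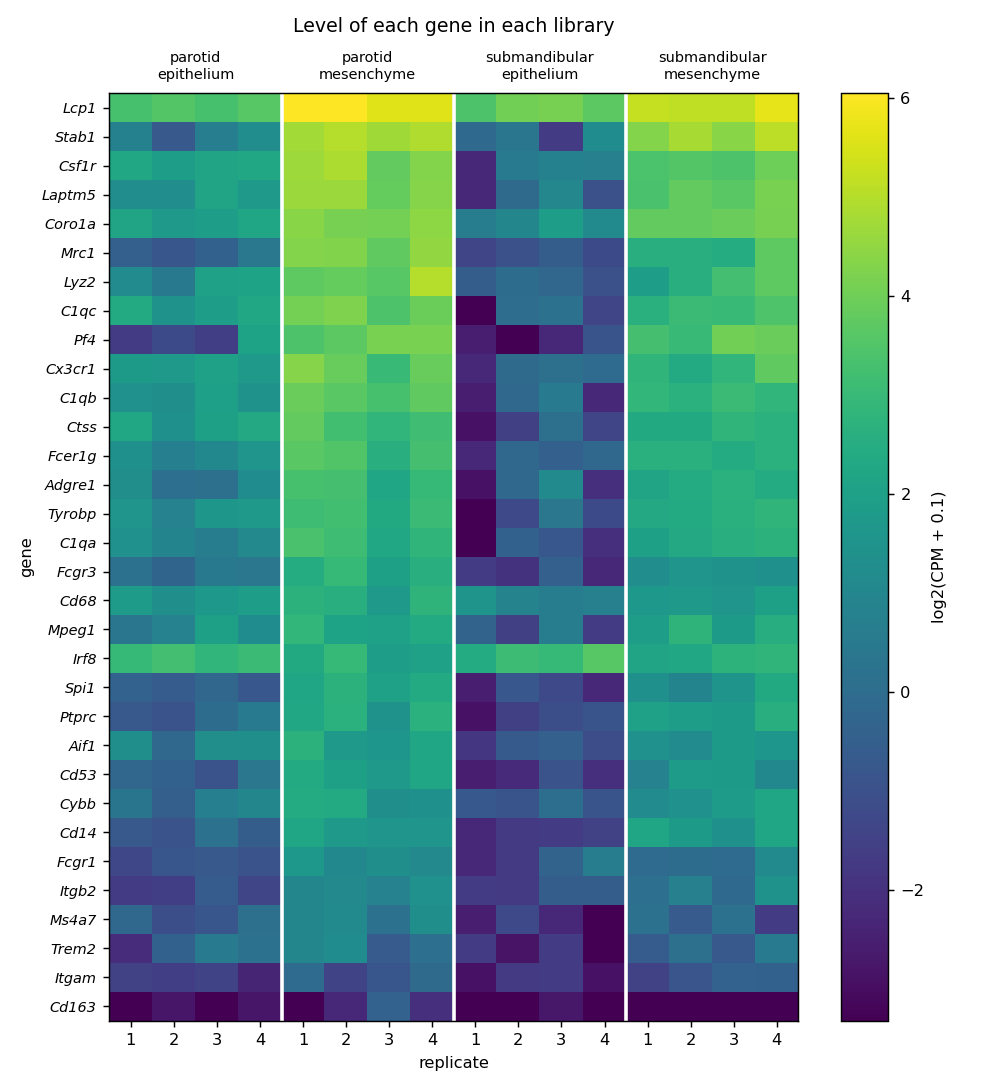
Level of each of the 32 genes (rows, ordered by mean in parotid mesenchyme) in each of the 16 libraries (columns, by group), as the log2 of CPM with a small constant added. Lcp1 heads the order at 56.7 CPM in parotid mesenchyme. Darker colours are lower levels. Submandibular epithelium is the darkest group for most genes, and Irf8 is about as bright in epithelium as in mesenchyme.

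Libraries of a group differed for most members at once. Submandibular epithelium replicate 1, the epithelial library richest in erythroid reads, had the lowest value of its group for 22 of the 32 genes and no reads at all for C1qa, C1qc and Tyrobp. Replicate 3 of that group was the highest for 18 members and also had the highest mesenchymal marker sum of the group, 390 CPM. Parotid epithelium replicate 2 was the lowest for 19 members and replicate 4 the highest for 17. Parotid mesenchyme replicate 3 was the lowest for 28, and submandibular mesenchyme replicate 4 the highest for 20. Among the 28 members with enough reads, the deviations from the group mean had a median pairwise correlation of 0.42 over the 16 libraries (378 pairs, of which 87.8% were positive). The genes of a pair share their libraries and depth, so this is a description only.

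Epithelium and mesenchyme were then compared within each gland, to ask how far these genes follow the mesenchyme. In parotid glands 29 of the 31 members tested fell in epithelium, Irf8 rose and Trem2 did not pass the test (edgeR quasi-likelihood test, adjusted p under 0.05). Of all genes tested, 64.9% were called between these layers, 33.5% lower in epithelium and 31.4% higher. In submandibular glands 29 of 31 fell and 0 rose, against 33.7% and 33.3% of all genes (67% called either way); at an unadjusted p under 0.05, 1 member was higher. Of the members, 28 fell in both glands. The median log2 difference was -2.25 in parotid and -3.39 in submandibular glands, where the medians over all genes tested were 0.00 and 0.01. All 4 epithelial libraries lay below all 4 mesenchymal ones for 27 members in parotid glands, against 30% of all genes, and for 28 in submandibular glands, against 31.4%.

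Mrc1, Stab1 and Pf4 showed the steepest falls. Mrc1, the mannose receptor, read 19.7, 19.3, 13.3 and 23.1 CPM in parotid mesenchyme and 0.635, 0.469, 0.659 and 1.25 CPM in parotid epithelium, a log2 difference of -4.64 (SE 0.36, adjusted p = 7.61e-09 by edgeR). In submandibular glands it read 5.86, 5.94, 5.41 and 13.2 CPM in mesenchyme and 0.287, 0.403, 0.583 and 0.33 CPM in epithelium. That gave -4.26 (SE 0.38, edgeR adjusted p = 3.13e-08), again without overlap.

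Stab1, which encodes the scavenger receptor stabilin-1, read 26.8, 31.7, 25.9 and 30 CPM in parotid mesenchyme and 1.65, 0.516, 1.51 and 2.31 CPM in parotid epithelium. Submandibular mesenchyme had 19.6, 28.1, 20.7 and 34.9 CPM of Stab1 and the epithelium 0.826, 1.17, 0.212 and 2.27 CPM. Its log2 differences were -4.25 (SE 0.44) and -4.48 (SE 0.45), with edgeR adjusted p of 3.43e-07 and 2.04e-07. The groups were far apart in both glands. The endothelial markers, genes of a cell type that can also make Stab1 and Mrc1, had an epithelial sum of 2.38% of the mesenchymal one in parotid and 1.96% in submandibular glands. Stab1 stood at 5.23% and 4.33% and Mrc1 at 4.0% and 5.28%. The median log2 difference of the 12 endothelial markers tested was -6.78 in parotid and -9.45 in submandibular glands. The typical endothelial gene therefore fell further than these sums show. Whether endothelial cells contributed to Stab1 or Mrc1 was not tested.

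Pf4 read 10.8, 12.7, 17.7 and 17.8 CPM in parotid mesenchyme and 0.212, 0.328, 0.235 and 4.19 CPM in parotid epithelium. In submandibular glands it read 9.59, 8.13, 16.4 and 15 CPM in mesenchyme and 0.0718, 0.0, 0.106 and 0.44 CPM in epithelium. The log2 differences were -3.58 (SE 0.76) and -6.21 (SE 0.95), with edgeR adjusted p of 6.89e-04 and 3.13e-05. Epithelial values of Pf4 were under 0.5 CPM except in parotid replicate 4. That library also had the highest sum of 10 megakaryocyte and platelet genes in epithelium, 7.22 CPM against 1.36 to 1.7 CPM in the other parotid epithelial libraries, and an erythroid sum of 498 CPM. In mesenchyme the megakaryocyte genes summed to 18.4 to 34.5 CPM in the parotid and 19.1 to 29.7 CPM in submandibular libraries, and all 9 of those tested fell in the epithelium of both glands. The part of megakaryocytes in the Pf4 values was not tested.

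Laptm5, a lysosomal membrane protein of blood cells, read 24.5, 24.6, 14 and 20.4 CPM in parotid mesenchyme against 2.29, 2.34, 4.33 and 3.13 CPM in epithelium. In submandibular glands Laptm5 read 10.2, 13.8, 12.5 and 17.8 CPM against 0.108, 0.846, 1.91 and 0.403 CPM. Cd14, the co-receptor for lipopolysaccharide, read 4.59, 3.34, 2.47 and 4.41 CPM in submandibular mesenchyme and 0.108, 0.201, 0.212 and 0.256 CPM in epithelium. None of these pairs of groups overlapped. The log2 differences in submandibular glands were -4.14 (SE 0.49) for Laptm5 and -4.22 (SE 0.37) for Cd14. Ptprc fell by 2.64 (SE 0.44) in parotid and by 3.94 (SE 0.50) in submandibular epithelium, and Spi1 fell by 3.01 (SE 0.41) and 3.63 (SE 0.46) on the same log2 scale.

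Some members differed little between the layers, and others passed the test in a single gland. Irf8 was higher in parotid epithelium by 0.68 (log2, SE 0.27, edgeR adjusted p = 0.0351) and had a difference of 0.58 (SE 0.27, edgeR adjusted p = 0.0653) in submandibular glands. The parotid call was lost when any of parotid epithelium replicates 2 or 4 or parotid mesenchyme replicates 1, 3 or 4 was left out, and over all alternatives the adjusted p ran from 0.0056 to 0.122. Cd68, a lysosomal glycoprotein, fell by 0.80 (SE 0.26) in parotid and 0.77 (SE 0.27) in submandibular epithelium. It read 3.52, 2.44, 3.06 and 3.71 CPM in the parotid and 2.76, 1.73, 1.48 and 1.61 CPM in submandibular epithelium. Trem2, a lipid receptor that signals through TYROBP, had a difference of -0.83 (SE 0.63) in parotid glands, and Fcgr1, the high-affinity IgG receptor, had -0.92 (SE 0.55) in submandibular glands. Neither passed the test there. Both were called lower in the other gland, with -2.84 (SE 0.78) for Trem2 in submandibular and -2.46 (SE 0.57) for Fcgr1 in parotid epithelium.

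The epithelium to mesenchyme ratio puts these differences on a linear scale. The summed level in epithelium was 21.9% ± 3.52 (SD over 4 epithelial libraries) of the mean mesenchymal sum in parotid glands and 17.5% ± 4.77 in submandibular glands. These sums lean on abundant genes. Lcp1, which encodes the actin-bundling protein L-plastin, and Irf8 held 25.4% of the sum in parotid epithelium and 57% in submandibular epithelium. Without Lcp1 and Irf8 the ratios were 20% and 9.45%, and the median over the members' own ratios was 20.8% in parotid and 9.56% in submandibular glands. The submandibular value therefore moved by more than 1.5 times with the way it was summed, and the parotid value did not.

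Single members ran from 4.0% (Mrc1) to 159% (Irf8) in parotid and from 1.26% (Pf4) to 149% (Irf8) in submandibular glands. The ratio was higher in the parotid gland for 26 of the 31 members that had both. C1qa was at 25.6% and 5.98%, C1qc at 26.4% and 6.86%, Tyrobp at 34.6% and 8.13% and Ctss at 41% and 6.82%. Lcp1, at 19.1% and 35.6%, went the other way, as did Itgb2 (16% and 26%), the β2 integrin chain of leukocytes. Fcgr1 was at 18% and 52.3%; its submandibular epithelial libraries read 0.108, 0.201, 0.689 and 1.47 CPM, and without replicate 4 the ratio was 28.2%. The submandibular ratios of other members moved with single libraries too: without submandibular epithelium replicate 3 Ctss was at 3.29% and Tyrobp at 3.78%, without replicate 2 C1qa was at 3.92%, and without replicate 4 Pf4 was at 0.483% and Stab1 at 2.85%. In the parotid gland Pf4, at 8.42%, was at 1.75% without epithelium replicate 4. Itgam, the α chain paired with the Itgb2 chain in the receptor Mac-1, was at 35.5% and 24%. However, 68.7% of the exon bases of Itgam are shared with the overlapping gene model Gm49368, and its counts are uncertain.

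The same ratio was taken for markers of other cells. The epithelial sum was 1.22% and 1.14% of the mesenchymal one for mesenchymal markers in parotid and submandibular glands, 10.6% and 6.49% for erythroid genes, and 12.1% and 13.3% for megakaryocyte and platelet genes. Mast cell genes were at 2.94% and 2.24%, and lysosome genes of most cells at 68.2% and 70.4%. Several of these values rest on 1 epithelial library. Without parotid replicate 4 the erythroid ratio was 4.6% and the megakaryocyte ratio 6.41% in that gland, without submandibular replicate 1 the erythroid ratio was 1.88%, and without submandibular replicate 3 the mesenchymal ratio was 0.665%. For other leukocyte lists the counts of genes are given in place of sums. In parotid epithelium 2 of 7 granulocyte genes, 2 of 4 monocyte genes and 5 of 7 dendritic cell and MHC class II genes fell, and 0, 1 and 2 rose. In submandibular epithelium 5, 2 and 2 of the same genes fell and 0, 1 and 0 rose. Lymphocyte genes were very low everywhere: 3 of 13 could be tested, their sum ran from 0.685 to 6.53 CPM over the 16 libraries, and Cd3e had 0 reads in both mesenchymal groups.

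**Figure D3:**
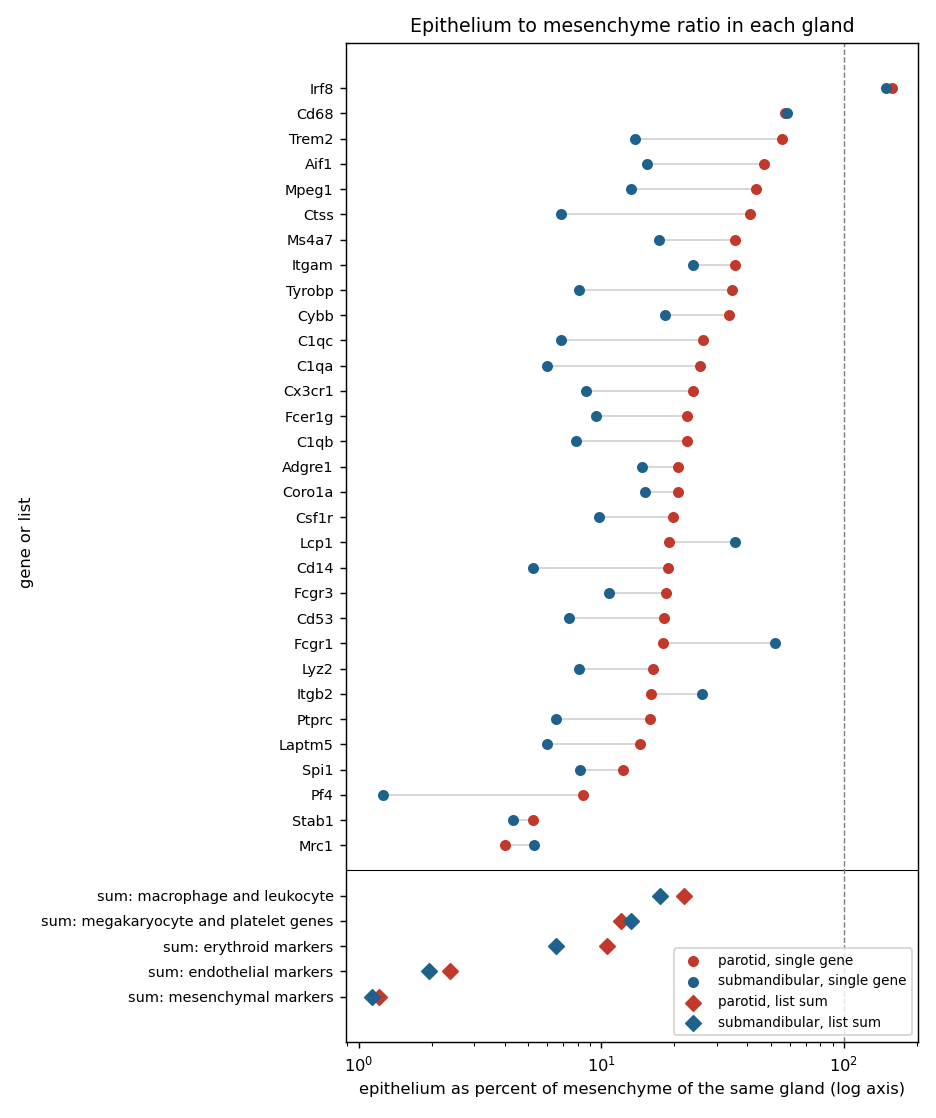
Mean CPM in epithelium as a percent of mean CPM in mesenchyme (log axis) in each gland, for 31 members and for the sums of 5 gene lists, with 100% as a dashed line. Irf8 lies above 100% in both glands, most members lie to the right in parotid, and the mesenchymal marker sums lie near 1%.

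Parotid and submandibular epithelium were compared to ask whether the glands differ in these genes. Of the 31 members tested, 19 rose in parotid epithelium and 0 fell (edgeR, adjusted p under 0.05); at an unadjusted p under 0.05, 1 was lower. Of all genes tested, 20.9% were called, 11.2% higher and 9.72% lower. The median log2 difference of the members was 1.89, against 0.00 over all genes, and 27 of 31 were positive. For 14 members all 4 parotid libraries lay above all 4 submandibular ones, against 9.98% of all genes. Without parotid epithelium replicate 4 and submandibular epithelium replicate 1, the epithelial libraries richest in erythroid reads, 12 members were called, all of them among the 19. A fit of only the 8 epithelial libraries kept 13 of the 19 calls and added 0.

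Ctss showed the steepest rise. This gene of cathepsin S, a protease that trims antigens for presentation, read 4.7, 2.48, 3.86 and 4.96 CPM in the parotid epithelium and 0.0359, 0.242, 1.01 and 0.293 CPM in the submandibular epithelium. The difference was 3.44 on the log2 scale (SE 0.50, edgeR adjusted p = 1.33e-04), and every parotid library was above every submandibular one. C1qc followed at 2.89 (SE 0.54, edgeR adjusted p = 0.00124), then Trem2 at 2.74 (SE 0.78, edgeR adjusted p = 0.0204) on means of only 0.79 and 0.117 CPM, C1qa at 2.66 (SE 0.54), Tyrobp at 2.62 (SE 0.56) and C1qb at 2.42 (SE 0.51). Cx3cr1 rose by 2.30 (SE 0.45) and Csf1r by 1.89 (SE 0.43), each with the library values given above.

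Other surface and lysosomal genes rose with them. Aif1, which encodes the actin-binding protein IBA1, rose by 2.26 (SE 0.42), Fcgr3, a low-affinity IgG receptor, by 1.98 (SE 0.41) and Fcer1g by 1.96 (SE 0.39). Laptm5 rose by 1.97 (SE 0.49), Lyz2 by 2.16 (SE 0.50), Cd53, a leukocyte tetraspanin, by 2.06 (SE 0.48), and Mpeg1, the pore-forming protein perforin-2 of macrophages, by 1.85 (SE 0.50). Trem2, Ms4a7, Cd14, Ptprc and Coro1a, a leukocyte coronin, made up the rest of the 19, with log2 differences from 0.82 for Coro1a to 2.74 for Trem2.

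The 12 not called included Mrc1, Stab1 and the integrins. Mrc1 had a difference of 0.93 (SE 0.41), Stab1 of 0.37 (SE 0.46), Itgb2 of -0.27 (SE 0.51) and Itgam of 0.89 (SE 0.64). Adgre1 had 1.18 (SE 0.67, edgeR adjusted p = 0.228), Spi1 1.36 (SE 0.49, edgeR adjusted p = 0.0577) and Cybb, the catalytic subunit of the phagocyte oxidase, 1.17 (SE 0.42). Pf4 had the largest difference among them, 2.89 (SE 1.01, edgeR adjusted p = 0.0542), with parotid replicate 4 at 4.19 CPM and the other parotid epithelial libraries at 0.212 to 0.328 CPM. Irf8 had -0.05 (SE 0.26) and Lcp1 -0.39 (SE 0.17), with Lcp1 at 9.91, 11.4, 9.89 and 12 CPM in the parotid and 10.6, 16.3, 17.2 and 12.9 CPM in submandibular epithelium. A difference that missed the threshold does not show equal levels.

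Markers of other cells in the epithelial libraries also differed between the glands. The members' sum in parotid epithelium was 1.88 times that in submandibular epithelium, the mesenchymal marker sum 2.06 times, and the endothelial sum 1.11 times. Without submandibular epithelium replicate 3 the mesenchymal value was 3.52 times. The erythroid sum was 0.786 times the submandibular one, but 2.71 times without submandibular epithelium replicate 1, 0.342 times without parotid epithelium replicate 4 and 1.18 times without both, so its direction rests on single libraries. Of the 10 erythroid genes tested 1 rose and 0 fell, with a median log2 difference of 0.75. Of 12 mesenchymal markers 4 rose in parotid epithelium (Col1a2, Twist1, Twist2 and Postn) and 0 fell, with a median of 0.75. Of the 12 endothelial markers tested 5 rose (Kdr, Flt1, Emcn, Esam and Ecscr) and Tek fell. The median log2 difference of the endothelial markers was 2.15, with genes from -1.73 to 4.61, against 1.89 for the members. Their sum therefore did not show the difference of the typical endothelial gene. Of all genes tested, 11.2% were higher and 9.72% lower. The part of these other cells in the members' difference was not tested.

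**Figure D4:**
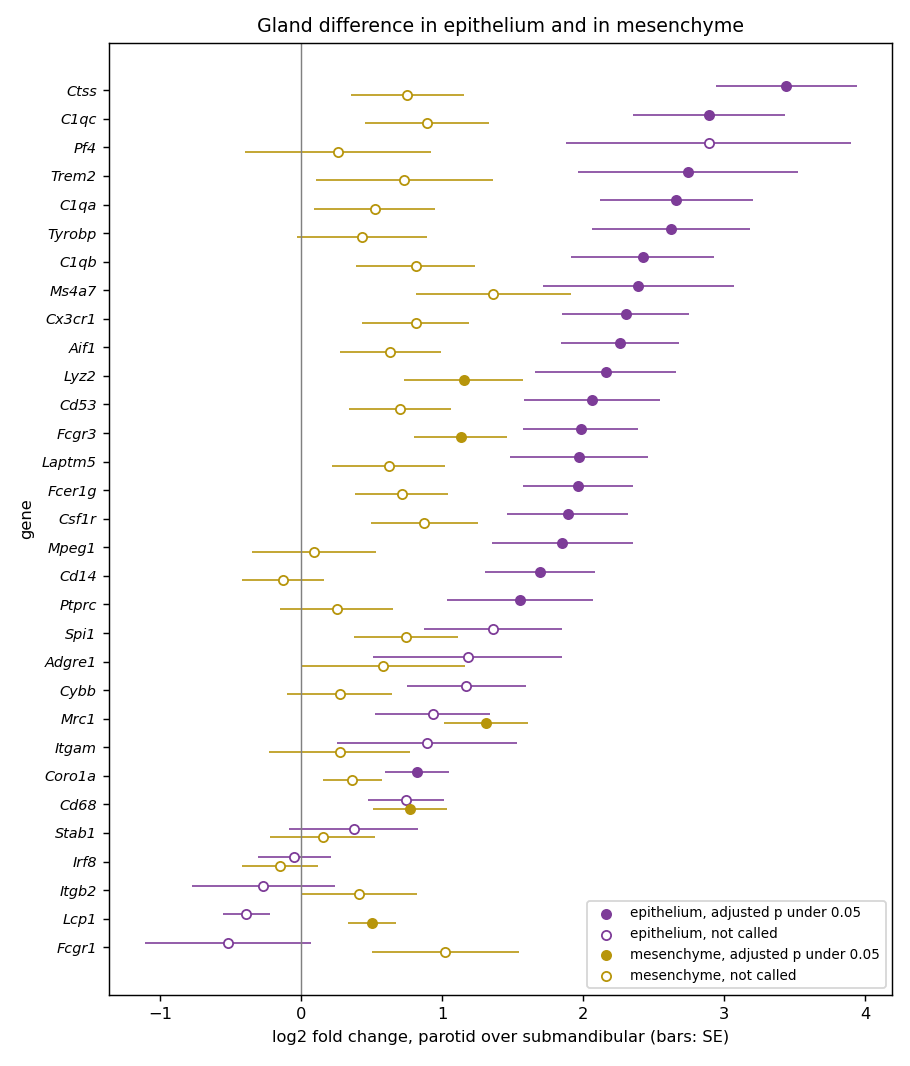
Log2 difference between parotid and submandibular glands (points, bars are the SE derived from the F statistic of the test) for 31 members in epithelium and in mesenchyme. Filled points have adjusted p under 0.05. In epithelium 19 points are filled, up to 3.44 for Ctss, and in mesenchyme 5 are filled, up to 1.31 for Mrc1.

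In mesenchyme 5 of the 31 members rose in the parotid gland and 0 fell (edgeR; at an unadjusted p under 0.05, 0 were lower), against 20.8% of all genes called higher and 13.7% lower (34.5% either way). The share of members called lay below that background. The median log2 difference was 0.63, against 0.04 over all genes, and 29 of 31 were positive. Groups did not overlap for 4 members, C1qb, Mrc1, Ctss and Fcgr3, against 21.7% of all genes.

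Mrc1 had the largest rise among those called, 1.31 (SE 0.30, edgeR adjusted p = 0.00262). Fcgr3 read 5.47, 7.61, 3.91 and 5.97 CPM in the parotid and 2.29, 2.89, 2.73 and 2.5 CPM in submandibular mesenchyme, a rise of 1.13 (SE 0.33, edgeR adjusted p = 0.0129). Lyz2, which read 13.1, 14.3, 12 and 32 CPM against 3.67, 5.94, 9.33 and 13.2 CPM with overlap, rose by 1.15 (SE 0.42, edgeR adjusted p = 0.0411). Cd68 rose by 0.77 (SE 0.26) and Lcp1 by 0.50 (SE 0.17). Lcp1 read 64.8, 65.9, 48.1 and 48.3 CPM in the parotid and 37.3, 35.8, 35.1 and 51.9 CPM in submandibular mesenchyme. Of the exon bases of Lcp1, 5.58% are shared with gene models on the other strand. The calls of Mrc1 and Fcgr3 held under every alternative run, while those of Cd68, Lyz2 and Lcp1 did not. The count fell to 2 when libraries were scaled by their total alone or by the upper quartile, and rose to 10 when only the 8 mesenchymal libraries were fitted. Among the mesenchymal libraries, leaving out submandibular replicate 1, 2 or 3 left 2 calls and leaving out parotid replicate 1, 2 or 4 left 3; without submandibular epithelium replicate 1 there were 8. Mesenchymal markers summed to 1.92 times the submandibular level in parotid mesenchyme and endothelial markers to 0.912 times, and their part in the result was not tested.

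The gland difference in epithelium was set against that in mesenchyme by an interaction term. It was larger in epithelium for 6 members and smaller for 1, against 8.67% and 12.2% of all genes, and the median over members was 1.02 against -0.04 over all genes. Ctss had the largest such difference, 2.68 (log2, SE 0.63, edgeR adjusted p = 0.00575), followed by Tyrobp at 2.18 (SE 0.72), C1qa at 2.14 (SE 0.69), C1qc at 2.01 (SE 0.69), Cd14 at 1.82 (SE 0.49) and Aif1 at 1.63 (SE 0.55). Cd14 read 4.56, 3.28, 2.84 and 2.84 CPM in parotid mesenchyme, overlapping the submandibular values, and 0.508, 0.422, 1.04 and 0.578 CPM in parotid epithelium, above all submandibular libraries. Lcp1 went the other way at -0.90 (SE 0.24, edgeR adjusted p = 0.0126). Ctss, Cd14 and Lcp1 kept their calls under every alternative, and the other 4 did not. The count of 6 higher was 10 with DESeq2. It was 2 or 3 without any 1 of parotid epithelium replicates 1, 3 or 4, parotid mesenchyme replicates 2, 3 or 4, submandibular epithelium replicate 4 or any submandibular mesenchyme library, and 12 without submandibular epithelium replicate 3.

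Genes outside the 32 that tissue macrophages are known to use gave a mixed account. Of 16 tested, 8 rose and 4 fell in parotid epithelium, against 11.2% and 9.72% of all genes. Their log2 differences ran from -2.39 to 4.17, with a median of 1.9. C3ar1, the receptor for complement C3a, rose by 3.23 (SE 0.62), Msr1, a scavenger receptor, by 3.67 (SE 0.66) and F13a1, the coagulation factor XIII A chain, by 3.78 (SE 0.69). Cbr2, a carbonyl reductase listed as a macrophage marker, was at 20.8 ± 3.0 and 101 ± 8.84 CPM in the parotid and submandibular epithelium (SD, n = 4) and at most 0.643 CPM in any mesenchymal library. In mesenchyme 7 of the 16 rose and 1 fell, against 20.8% and 13.7% of all genes. The differences there ran from -3.11 to 3.23, with a median of 0.67. F13a1 was higher by 2.53 (SE 0.51) and Lyve1, a hyaluronan receptor of vessel-lining macrophages and lymphatic endothelium, by 3.23 (SE 0.67).

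Signalling and cytoskeletal genes of leukocytes were counted in the same way, beside the 11.2% of all genes called higher and 9.72% called lower in parotid epithelium. Of 13 myeloid kinase and adaptor genes 3 rose and 0 fell in parotid epithelium, among them Vav1, an exchange factor downstream of ITAM receptors, by 2.29 (SE 0.54). Of 13 pan-leukocyte genes 4 rose and 0 fell, led by Plek, the platelet and leukocyte protein pleckstrin, at 2.29 (SE 0.32), and including the GTPase gene Rac2 at 2.10 (SE 0.44). Between the layers the pan-leukocyte list had 11 lower in epithelium in each gland and 2 higher, Runx1 and Arhgdib. The myeloid kinase and adaptor list was more mixed, with 6 lower and 4 higher in parotid epithelium and 7 lower and 2 higher in submandibular epithelium. Of all genes, 33.5% and 33.7% were lower in epithelium in the parotid and submandibular glands, and 31.4% and 33.3% higher. Runx1, a transcription factor of blood and of several epithelia, was at 67.5 ± 5.14 and 50.5 ± 8.23 CPM in the parotid and submandibular epithelium (SD, n = 4) and at 2.8 ± 1.08 and 1.58 ± 1.05 CPM in mesenchyme.

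The ligands lay mostly in mesenchyme. Csf1, the main ligand of CSF1R, was at 41 ± 7.57 CPM in parotid mesenchyme and 17.8 ± 2.57 CPM in submandibular mesenchyme (SD, n = 4), a rise of 1.2 (SE 0.27, edgeR adjusted p = 0.00237). In epithelium it was at 5.19 ± 2.47 and 3.2 ± 0.924 CPM (SD, n = 4). Il34, the other CSF1R ligand, had at most 39 reads in a group and was not tested. Cx3cl1, the ligand of CX3CR1, was higher in epithelium than in mesenchyme by 1.63 (SE 0.25) in parotid and 0.62 (SE 0.25) in submandibular glands. Of the 9 genes tested in this list, 8 fell in parotid epithelium and 7 in submandibular epithelium, against 33.5% and 33.7% of all genes. Cxcl12, a chemokine that retains blood cells in tissues, was at 713 ± 89.6 and 568 ± 39.1 CPM in mesenchyme (SD, n = 4). In epithelium Cxcl12 was at 6.75 ± 4.9 and 7.99 ± 5.76 CPM (SD, n = 4).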

How the data were processed

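RNA of 16 libraries was prepared with TRIzol (RIN above 8.7), SMART-Seq v4 and Nextera XT, kits that do not mark strand, per the labels' protocols. Reads were handled with STAR 2.5.2a and edgeR on GRCm38 (mm10), per the submitters' processing notes. The counter and annotation behind the tables were not given in the sources used here. Deposited values used were whole-number read counts per gene. The authors' deposited signal table holds CPM scaled by TMM. CPM computed here from their filtered counts matched that table to a relative difference of 4.98e-15. Levels in the text were computed apart from that check, from the unfiltered counts. They use library totals of all genes and TMM factors of the 18191 genes tested. The 92 spike-in features stayed out of totals and tests.

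Counts were fitted with edgeR 4.0.16 (R 4.3.3): TMM, filterByExpr, a robust quasi-likelihood fit with 1 coefficient per group over all 16 libraries, and Benjamini-Hochberg adjustment over 18191 genes at 0.05. Each SE given with an edgeR log2 difference is the absolute difference divided by the square root of the quasi-likelihood F statistic. The script was tested on simulated data. Alternatives were other scalings, no filter, DESeq2 1.42.0, the compared libraries alone, a replicate block and leaving out each library. No replicate pair agreed within sampling noise (chi-square per gene at least 10.5). Exon lengths and gene positions came from GENCODE M21 and promoters from RefSeq.

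The members and lists were chosen with earlier results of these data known. Any member could be named; library values are given for 10 defining markers and, in each comparison, up to 6 called members with the largest fold change and at least 1 CPM as the mean of the higher group. From other lists, up to 3 genes with the highest mean and 3 called genes with the largest fold change could be named; the rest, and the values given to show a contrast, were chosen after their values were seen. The values of 1 gene of another list are not reported here.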

Additional observations from a re-analysis of the deposited data

Results flagged for a closer look

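Among the 132 sets of 4 library values looked at (32 members and their sum in 4 groups), 8 had a library set far apart from the other 3, where chance gives about 1 in 20, or 6.6. Submandibular mesenchyme replicate 4 was the highest for 3 members, with Fcgr1 at 2.07 CPM (others 0.867 to 0.898), Lcp1 at 51.9 CPM (others 35.1 to 37.3) and Mrc1 at 13.2 CPM (others 5.41 to 5.94). Submandibular epithelium replicate 3 was the highest for Cybb, at 0.954 CPM (others 0.44 to 0.503), and for Cd163, at 0.053 CPM, which is 1 read. Parotid epithelium replicate 2 was the lowest for Aif1, at 0.797 CPM (others 2.4 to 2.46). Parotid epithelium replicate 4 had Pf4 at 4.19 CPM (others 0.212 to 0.328), and parotid mesenchyme replicate 4 had Lyz2 at 32 CPM (others 12 to 14.3).

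The gland difference was not the same in the 2 layers for 7 members by the interaction term of edgeR. It was larger in epithelium, on the log2 scale, by 2.68 for Ctss (adjusted p = 0.00575), 2.18 for Tyrobp (0.04), 2.14 for C1qa (0.0341), 2.01 for C1qc (0.0485), 1.82 for Cd14 (0.0129) and 1.63 for Aif1 (0.0426), and for Lcp1 the term was -0.90 (0.0126).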

How the results depend on the processing

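No call of a member changed sign under any alternative run. Of 19 members called between the epithelia, 12 kept their call in every alternative, as did 25 of 30 between the parotid layers, 28 of 29 between the submandibular layers, 2 of 5 between the mesenchymes and 3 of 7 for the interaction. Without parotid epithelium replicate 4 and submandibular epithelium replicate 1, an alternative added after seeing the data, 12 members were higher in parotid epithelium and 1 was higher in submandibular epithelium than mesenchyme. Members higher in parotid mesenchyme numbered 2 with upper-quartile scaling, 2 with library totals alone and 10 in a fit of only the 8 libraries. DESeq2 gave 10 members with a larger gland difference in epithelium. Scaling by library total moved the median of all genes between the mesenchymes from 0.04 to -0.14. The submandibular ratio was 9.56% as a median of members and 9.45% without Irf8 and Lcp1, the latter added after seeing the data. The cause of these shifts was not tested.

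Leaving out each library in turn gave 16 to 22 members higher in parotid epithelium, 2 to 8 higher in parotid mesenchyme, 26 to 29 lower and 0 to 1 higher in parotid epithelium than mesenchyme, 28 to 30 lower and 0 to 1 higher in submandibular epithelium than mesenchyme, and 2 to 12 with a larger difference in epithelium. The ratios ran from 20.3% to 23.6% and from 15.2% to 19.1%.

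Replicate numbers are shared by the groups, but the same-numbered libraries did not deviate together: 3 of 24 pairs correlated over 0.1, and a library correlated best with its own number in 14 of 48 cases. With the replicate block, 2 members had a larger difference in epithelium and 21 were higher in parotid epithelium. Submandibular epithelium held 695 to 1126 member reads per library. Leaving libraries out of the ratios of other lists and of single members was added after seeing the data.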
